A study of Mus musculus with 10 samples.

Results

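The 44 genes described here carry a cell through mitosis, and they were read as rows of the deposited expression table whose gene symbol matched a list of 44 symbols, out of 48516 genes with an identifier. Every symbol matched exactly 1 row, no value of any of the 44 genes was 0, and all 44 stayed above the minimum of 1 FPKM in at least 5 of the 10 libraries that left 13152 genes for testing. FPKM, a count of fragments scaled by transcript length and by the size of the library, is the unit of all levels given here. Values lay between 1.93 FPKM, Cdc25c in metastasis 72, and 461 FPKM, Cdk1 in metastasis 36. The list was drawn up by function, with earlier results of these data known.

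The libraries were polyA RNA from a mouse model of pancreatic cancer on the FVB strain. The metastasis group held 5 libraries labelled as cell lines Met25, Met35, Met36, Met38 and Met72, each from an Ink4a liver metastasis. The primary group held 5 libraries of Ink4a primary tumour, numbered 25, 35, 36, 38 and 72 like the metastases and all labelled with the cell line name Ink4a. Lines were untreated and grown to 90% confluence, and the tissue label was pancreas tumour in both groups. In the model, a single parental line, Ink4a.1, was injected into the pancreas of host mice, so that all metastases trace back to 1 line. The series description counts metastasis lines from 4 mice where the labels carry 5 numbers, and nothing states that the 5 primary libraries came from separate tumours or cultures, so p-values measure only the spread between these libraries, which may be technical.

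Mitosis begins when cyclin B with the kinase Cdk1 is switched on by Cdc25 phosphatases. Condensins and topoisomerase then compact the chromosomes, kinetochores tie them to spindle microtubules, and a checkpoint holds the anaphase-promoting complex (a ubiquitin ligase) back until every chromosome is attached. Once Cdc20 activates that complex, separase cuts the cohesin that joins sister chromatids, and motor proteins and a contractile ring divide the cell. Most of these genes are transcribed mainly late in the cell cycle, so their RNA in bulk samples is commonly read as a sign of dividing cells. Many share a promoter element, the cell cycle genes homology region with the letters TTTGAA, that the DREAM and MuvB complexes bind together with B-Myb and FoxM1, often next to CCAAT boxes bound by NF-Y.

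Promoters were read from RefSeq on GRCm38.p6 as the 250 bases before and 50 bases from each gene's start, and 37 of the 44 genes had an entry; Aurkb, Ccna2, Cdc25c, Foxm1, Incenp, Kif20a and Tpx2 had none. TTTGAA, on either strand, was present in 26 of the 37 (70.3%), against 20.2% of all 27025 genes in the table. CCAAT, on either strand, was present in 28 (75.7%), against 41.1% of all genes. Both sets of letters were present in 23 (62.2%), against 7.97% of all genes and 5.69% of the 9068 tested genes with an entry. The motifs can overlap only in an end base, and a match is a description of the sequence, not a mapped binding site. Windows of 200 bases, 170 before the start and 30 from it, are printed here for 4 genes with both sets of letters, taken from different steps of mitosis (Cdk1 for entry, Kif11 for the spindle, Cdc20 and Espl1 for anaphase). Capitals mark TTTGAA and CCAAT or their reverse complements, and all sequences read 5′ to 3′ on the gene's own strand.
Cdk1 (chr10:69352883-69353082, minus strand): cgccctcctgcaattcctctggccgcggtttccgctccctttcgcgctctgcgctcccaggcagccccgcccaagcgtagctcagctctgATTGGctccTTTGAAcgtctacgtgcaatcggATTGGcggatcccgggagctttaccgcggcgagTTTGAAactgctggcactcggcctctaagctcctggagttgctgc
Kif11 (chr19:37376212-37376411, plus strand): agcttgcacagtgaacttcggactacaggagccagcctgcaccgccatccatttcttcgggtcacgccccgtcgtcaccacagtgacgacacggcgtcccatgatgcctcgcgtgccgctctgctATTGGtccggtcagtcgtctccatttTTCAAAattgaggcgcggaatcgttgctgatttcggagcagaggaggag
Cdc20 (chr4:118437314-118437513, minus strand): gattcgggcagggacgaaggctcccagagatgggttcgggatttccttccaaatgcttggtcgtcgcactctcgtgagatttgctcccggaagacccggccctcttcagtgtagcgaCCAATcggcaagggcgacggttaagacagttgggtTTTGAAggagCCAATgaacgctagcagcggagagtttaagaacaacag
Espl1 (chr15:102296123-102296322, plus strand): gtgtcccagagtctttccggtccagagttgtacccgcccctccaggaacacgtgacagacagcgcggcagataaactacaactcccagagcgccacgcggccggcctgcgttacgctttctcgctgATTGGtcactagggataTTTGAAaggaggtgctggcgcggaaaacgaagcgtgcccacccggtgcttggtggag

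In each of these 4 windows a CCAAT box stood a short way upstream of TTTGAA, close to the start. A second set is shown because Arhgef39, Pttg1 and Cdc25b were the 3 genes whose levels followed the other mitosis genes least. None of their windows held TTTGAA, and only that of Cdc25b held CCAAT. The Arhgef39 window lies upstream of the locus that GENCODE gives for the gene, since the RefSeq entry starts elsewhere. The Pttg1 window lies inside the GENCODE locus, downstream of its 5′ end at 43426251, for the same reason. The windows of Kif2c and Cdca8, counted above as holding TTTGAA, also lie inside the GENCODE locus, downstream of 5′ ends at 117182639 and 124939311. Sequence directly before the GENCODE starts of Arhgef39, Pttg1, Kif2c and Cdca8 was not read.
Arhgef39 (chr4:43508718-43508917, minus strand): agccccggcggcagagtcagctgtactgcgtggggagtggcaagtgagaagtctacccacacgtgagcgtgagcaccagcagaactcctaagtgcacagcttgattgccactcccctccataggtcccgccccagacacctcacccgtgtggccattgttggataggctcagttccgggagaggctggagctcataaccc
Pttg1 (chr11:43425952-43426151, minus strand): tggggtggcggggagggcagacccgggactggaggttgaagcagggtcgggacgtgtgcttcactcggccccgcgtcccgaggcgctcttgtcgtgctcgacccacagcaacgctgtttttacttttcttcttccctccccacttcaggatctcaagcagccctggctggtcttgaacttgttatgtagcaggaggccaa
Cdc25b (chr2:131186778-131186977, plus strand): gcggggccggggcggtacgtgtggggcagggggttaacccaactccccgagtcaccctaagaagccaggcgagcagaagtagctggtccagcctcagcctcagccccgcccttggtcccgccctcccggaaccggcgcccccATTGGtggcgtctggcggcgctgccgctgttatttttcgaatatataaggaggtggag

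Genes without the letters lay at both ends of this order. Of the 6 genes with neither set of letters, Birc5, Mad2l1, Ncaph and Nuf2 followed the rest closely, and the median correlation with the mean of the other mitosis genes was 0.96 over these 6 and 0.97 over the 23 with both. These correlations are descriptions over the 10 libraries and carry no test.

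The libraries did not all look like pure tumour lines. The 4 libraries of numbers 35 and 36 had a summed level of 2.43 to 4.10 FPKM over 15 leukocyte genes (Ptprc, Cd68, Cd3e and others), with Cd3e, Cd3g, Cd8a and Ms4a1 at 0 in all 4, and the 6 libraries of numbers 25, 38 and 72 had 832 to 4940 FPKM. The lymphocyte genes were at or near 0 in metastasis 25 too, with Cd3e at 0.19, Cd3g at 0, Cd8a at 0.065 and Ms4a1 at 0 FPKM. Metastasis 25 also had 19727 FPKM over 8 hepatocyte genes and 28962 FPKM over 5 erythroid genes, metastasis 38 had 5539 FPKM over 5 skeletal muscle genes, and primary 25 had 6470 FPKM over 6 acinar and islet genes. Of the defining epithelial genes, Epcam reached 0.061 FPKM and Cdh1 0.29 FPKM at their highest among those 4 libraries, while Krt8 was between 16.3 and 325 FPKM over all 10. Depth, read from the smallest steps between FPKM values, was 15720000 fragments in metastasis 25 and up to 30400000 elsewhere, and the FPKM sum was 939415 in metastasis 25 and at most 653161 in the other 9 libraries. A mitosis gene rested on an estimated 155 to 54003 fragments per library, with a median of 2587.

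The mitosis genes were high in the libraries of numbers 35 and 36, lower in those of numbers 25, 38 and 72, and lowest in metastasis 72. Their mean log2(FPKM + 1) was 4.46, 5.71, 5.99, 4.14 and 3.14 in metastases 25, 35, 36, 38 and 72, against 4.44, 5.83, 5.97, 4.67 and 4.74 in primaries 25, 35, 36, 38 and 72. The numbers thus split the libraries more than the groups did, since the primaries of numbers 35 and 36 stood with their metastases. Summed over the 44 genes, levels were 1346, 3226, 3915, 1077 and 462 FPKM in the metastases in that order, against 1359, 3382, 3767, 1599 and 1651 FPKM in the primaries. Metastasis 72 was the lowest library for all 44 genes, and the highest was metastasis 36 for 27 and primary 36 for 10.

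**Figure D1:**
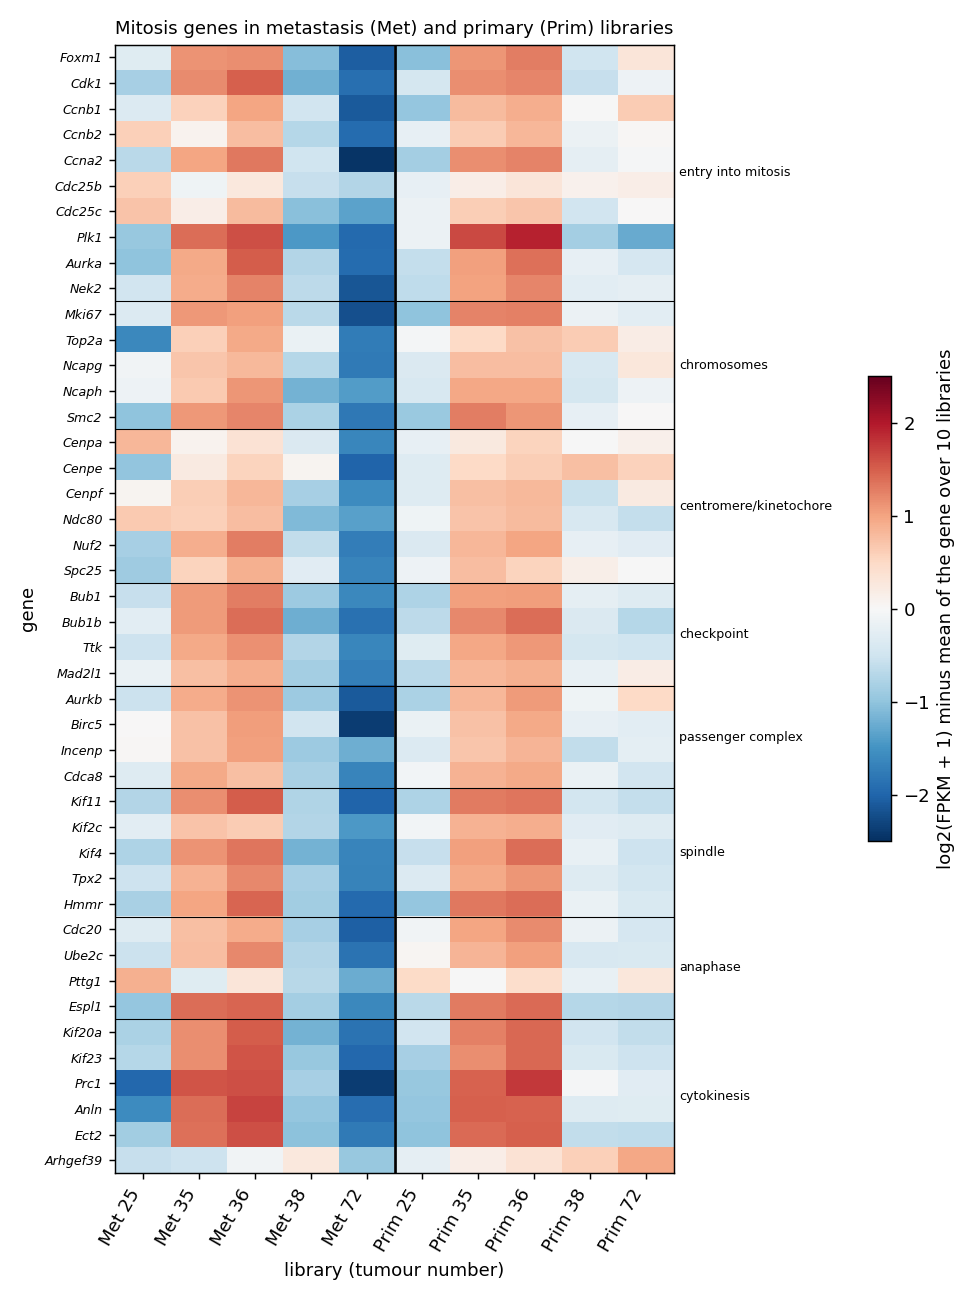
Heat map of log2(FPKM + 1) of the 44 mitosis genes (rows, grouped by role) in 5 metastasis and 5 primary libraries (columns, by tumour number), each gene minus its own mean over the 10 libraries. The columns of numbers 35 and 36 are above the gene means in nearly every row in both groups, and metastasis 72 is the lowest column for all 44 genes.

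As the heat map shows, the split by number ran through every role. In 34 of the 44 genes all 4 libraries of numbers 35 and 36 were above all 6 of the other numbers, against 24.0% of the 13152 genes tested. The 10 exceptions were Ccnb1, Ccnb2, Cdc25b, Cdc25c, Top2a, Cenpa, Cenpe, Ndc80, Pttg1 and Arhgef39. The leukocyte genes ran the other way between the same libraries, and 12 of the 15 were lower in all 4 than in all 6. Over all genes tested, 2612 of 13152 were lower in this way. The part of the leukocyte genes in the level of the mitosis genes was not tested. In bulk RNA, fewer tumour cells, fewer dividing cells and less mitotic RNA per dividing cell cannot be told apart. Among the 6 libraries with high leukocyte levels, the leukocyte sum was 889, 4940 and 2285 FPKM in metastases 25, 38 and 72. Their mitosis means were 4.46, 4.14 and 3.14 on the log2 scale. In primaries 25, 38 and 72 the leukocyte sums were 2952, 2586 and 832 FPKM and the mitosis means 4.44, 4.67 and 4.74.

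**Figure D2:**
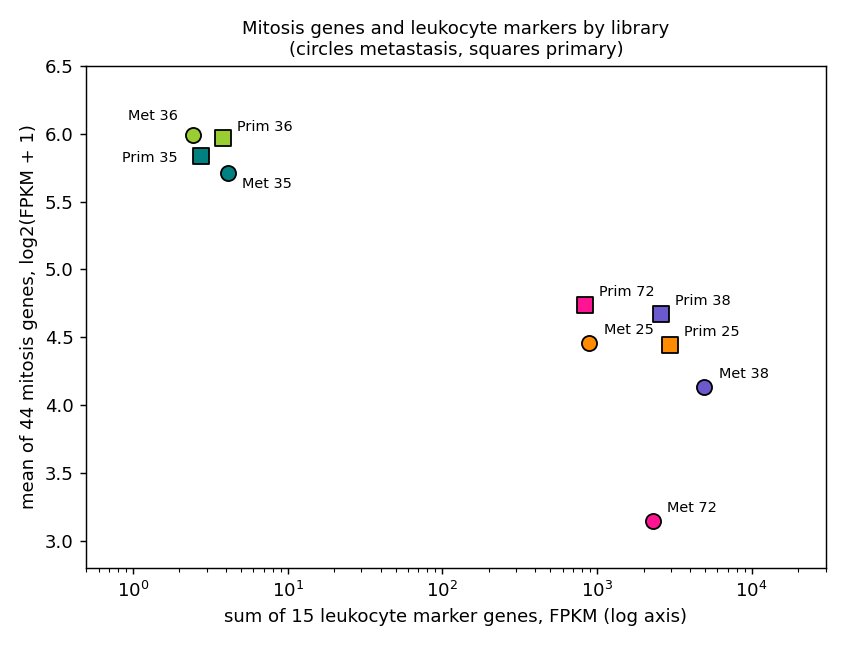
Mean log2(FPKM + 1) of the 44 mitosis genes (vertical axis) against the summed FPKM of 15 leukocyte genes (horizontal axis, log scale) in each library, with circles for metastases and squares for primaries and a colour for each tumour number. The 4 libraries of numbers 35 and 36 lie at the upper left with leukocyte sums of 2.43 to 4.10 FPKM, and metastasis 72 lies lowest at 3.14.

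Between the groups, all 44 mitosis genes had a lower mean in metastases than in primaries, and none passed the test. The count of 44 stands against 48.6% of all genes tested with a lower mean in metastasis. The median difference of the 44 was −0.44 on the log2(FPKM + 1) scale, beside 0.0075 over all genes tested, and single genes lay between −0.85 (Cenpe) and −0.14 (Incenp). With limma's moderated test and Benjamini-Hochberg adjustment over all 13152 genes, 0 of the 44 genes were called at an adjusted p under 0.05, against 0.0% of all genes, and every adjusted p among the 44 was 0.9998. At an unadjusted p under 0.05 in limma's test there was 1, Arhgef39, against 0.236% of all genes, which is 31 genes. Standard errors of 0.27 to 0.88 exceeded the size of the difference for most of the 44 genes, and the values of the groups overlapped for every one. Of all genes tested, 0.0304% had every metastasis below every primary. The group mean of the 44-gene average was 4.69 ± 1.17 in metastases and 5.13 ± 0.712 in primaries (SD, n = 5 each, log2 scale). Without metastasis 72, with primary 72 kept, 29 of the 44 had the lower mean in metastases. The mean difference over the 44 genes was then −0.058 in place of −0.44. It was −0.77 without metastasis 36, −0.70 without metastasis 35, −0.27 without primary 35 and −0.23 without primary 36.

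Among the genes that start mitosis, the forkhead factor Foxm1, which drives transcription of late cell cycle genes, was at 33.9, 93.5, 95.8, 19.6 and 9.43 FPKM in metastases 25, 35, 36, 38 and 72, against 19.99, 92.1, 104, 29.5 and 52.7 FPKM in primaries 25, 35, 36, 38 and 72. The same order of numbers is kept for the other genes. Foxm1 was thus high in the 4 libraries of numbers 35 and 36, and in number 72 the metastasis was far under its primary. The mitotic kinase Cdk1 (ENSMUSG00000019942.12, chr10:69335146-69352938 on GRCm38, minus strand), whose promoter is printed above, was at 90.9, 367, 461, 70.4 and 43.1 FPKM in metastases, against 119, 365, 379, 108 and 149 FPKM in primaries. It reached the highest level of the 44 genes and averaged 206 ± 193 FPKM in metastases and 224 ± 136 FPKM in primaries (SD, n = 5 each). Its partner cyclin B1, Ccnb1 (ENSMUSG00000041431.16, chr13:100778650-100786570, minus strand), was at 21.8, 41.7, 55.8, 19.8 and 5.703 FPKM in metastases, against 13.8, 48.7, 53.2, 27.7 and 43.8 FPKM in primaries. The distance between metastasis 72 and primary 72, −2.74 on the log2 scale, was the widest of all 44 genes and all 5 pairs.

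Cdc25b, a phosphatase that activates Cdk1, was at 56.1, 34.1, 44.1, 24.4 and 21.6 FPKM in metastases, against 31.6, 41.2, 45.6, 39.8 and 41.4 FPKM in primaries. It was highest in metastasis 25 and varied little among the primaries, so it lacked the split by number. The kinase Plk1, which promotes centrosome maturation and spindle assembly (ENSMUSG00000030867.7, chr7:122159439-122169873, plus strand), was at 16.1, 86.2, 101, 11.4 and 7.62 FPKM in metastases, against 29.03, 103, 125, 17.4 and 12.97 FPKM in primaries. It was lower in the metastasis in all 5 pairs, and primary 72 lay between the metastases of numbers 38 and 25. Aurka, the centrosomal Aurora kinase, was at 14.1, 57.1, 85.3, 17.3 and 7.03 FPKM in metastases, against 19.1, 60.996, 77.3, 25.5 and 21.7 FPKM in primaries, and repeated the pattern of Cdk1. The other 4 entry genes, the cyclins Ccnb2 and Ccna2, the phosphatase Cdc25c and the centrosome kinase Nek2, had group differences of −0.46, −0.53, −0.28 and −0.44 (log2 scale). Over the 10 entry genes the median difference was −0.47.

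Chromosome structure was represented by 5 genes. Mki67, which coats mitotic chromosomes and encodes the Ki-67 antigen used to stain dividing cells, was at 33.03, 90.7, 86.4, 26.3 and 8.47 FPKM in metastases, against 20.7, 101, 103, 38.1 and 34.996 FPKM in primaries. The libraries of numbers 35 and 36 stood above all others, and the difference of metastasis 72 from primary 72 was −1.93 on the log2 scale. Top2a, the topoisomerase that untangles sister chromatids (ENSMUSG00000020914.17, chr11:98992943-99024189, minus strand), was at 52.3, 246, 314, 146 and 47.6 FPKM in metastases, against 158, 229, 272, 253 and 184 FPKM in primaries. Metastases 25 and 72 were both low and primary 38 was as high as the libraries of numbers 35 and 36. Its group difference of −0.80 (SE 0.52) was among the 3 most negative of the 44, and its difference within pairs was −1.58 in pair 25 and −1.93 in pair 72, beside 0.10 in pair 35 and 0.21 in pair 36. The condensin subunit Smc2 was at 10.5, 48.4, 52.96, 12.4 and 5.75 FPKM in metastases, against 11.2, 55.5, 48.7, 19.1 and 22.2 FPKM in primaries, close to the common pattern. Ncapg and Ncaph, subunits of condensin I, had differences of −0.43 and −0.38.

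At the centromere, the histone H3 variant Cenpa was at 140.2, 83.99, 102, 61.3 and 24.8 FPKM in metastases, against 68.7, 93.2, 116, 78.2 and 85.98 FPKM in primaries. Metastasis 25 was the highest library and metastasis 72 the lowest, and the other 8 lay between 61.3 and 116 FPKM. The kinetochore motor Cenpe (ENSMUSG00000045328.11, chr3:135212537-135273611, plus strand) was at 10.8, 26.5, 33.6, 23.5 and 4.87 FPKM in metastases, against 17.6, 32.2, 35.05, 38.5 and 33.9 FPKM in primaries. It had the most negative group difference of the 44, −0.85 (SE 0.46), and was lower in the metastasis in all 5 pairs. Ndc80, the microtubule-binding subunit of the complex of that name, was at 23.1, 22.1, 25.01, 6.12 and 4.96 FPKM in metastases, against 13.2, 24.1, 25.3, 10.6 and 9.06 FPKM in primaries. Metastasis 25 was here level with numbers 35 and 36, and primary 72 was only 9.06 FPKM. Nuf2 and Spc25, partners of Ndc80 in the same complex, had differences of −0.39 and −0.54, and Cenpf, a large kinetochore protein, had −0.35.

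The checkpoint kinase Bub1 was at 9.31, 31.3, 36.1, 7.14 and 4.02 FPKM in metastases, against 8.03, 30.2, 30.5, 12.2 and 11.3 FPKM in primaries. Mad2l1, the inhibitor that keeps Cdc20 from its target until chromosomes are attached, was at 38.2, 73.1, 81.5, 23.4 and 12.3 FPKM in metastases, against 26.6, 76.8, 80.7, 37.7 and 48.8 FPKM in primaries. Both split by number without overlap, and in both the metastasis had the lower value in pairs 38 and 72. Bub1b and Ttk, the checkpoint proteins BubR1 and Mps1, had differences of −0.35 and −0.32, so the 4 checkpoint genes had the smallest median difference of the roles, −0.34.

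The chromosomal passenger complex corrects faulty attachments and later acts in cytokinesis. Its kinase Aurkb was at 28.9, 81.2, 92.5, 21.8 and 9.03 FPKM in metastases, against 23.99, 76.1, 88.9, 39.05 and 59.7 FPKM in primaries. Birc5, or survivin, which guides the complex to centromeres, was at 149, 246, 306, 106 and 27.7 FPKM in metastases, against 131, 244, 284, 127 and 123 FPKM in primaries. Aurkb and Birc5 were slightly higher in the metastasis in pairs 25, 35 and 36 and lower in pairs 38 and 72, with −2.60 and −2.11 in pair 72. Incenp, the scaffold, was at 25.4, 41.7, 51.4, 12.8 and 10.1 FPKM in metastases, against 19.5, 41.04, 45.9, 15.8 and 20.8 FPKM in primaries, and had the group difference nearest to 0, −0.14 (SE 0.48). Cdca8, or borealin, had −0.44.

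Of the 5 spindle genes, the kinesin Kif11, which pushes spindle poles apart, was at 8.29, 33.6, 43.1, 8.16 and 2.898 FPKM in metastases, against 8.06, 36.999, 38.5, 10.4 and 9.304 FPKM in primaries. Hmmr, a spindle-associated hyaluronan receptor, was at 10.2, 37.6, 52.8, 9.73 and 4.08 FPKM in metastases, against 9.03, 48.1, 50.5, 16.4 and 13.97 FPKM in primaries. In both, the lowest of the 4 libraries of numbers 35 and 36 was more than double the highest of the other 6. The microtubule depolymerase Kif2c, the chromokinesin Kif4 and the spindle assembly factor Tpx2 had differences of −0.44, −0.46 and −0.37, and Kif2c was lower in the metastasis in all 5 pairs.

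Cdc20, the activator of the anaphase-promoting complex (ENSMUSG00000006398.15, chr4:118432901-118437352, minus strand), was at 37.7, 80.2, 91.03, 26.03 and 10.8 FPKM in metastases, against 44.3, 95.01, 108, 42.7 and 35.3 FPKM in primaries. Each metastasis was below the primary of its number, and the group difference was −0.61 (SE 0.57). Ube2c, the ubiquitin-conjugating enzyme of that complex, was at 72.3, 181, 245, 62.7 and 28.7 FPKM in metastases, against 109, 191, 216, 79.6 and 80.3 FPKM in primaries, and split by number. Its exons overlap Tnnc2, a fast skeletal muscle troponin gene on the other strand, and the sources used here do not say whether strand entered the counting. In metastasis 38, the library with the highest skeletal muscle sum, Ube2c was at 62.7 FPKM, under primary 38. Its difference in pair 38 was −0.34 on the log2 scale, beside a median of −0.56 over the 44 genes. The part of Tnnc2 reads in the Ube2c level was not tested. Securin, Pttg1 (ENSMUSG00000020415.16, chr11:43420250-43426251, minus strand), which holds separase inactive, was at 89.1, 38.3, 58.3, 28.98 and 19.5 FPKM in metastases, against 66.6, 47.4, 64.8, 41.8 and 58.1 FPKM in primaries. It was highest in number 25, and the libraries of numbers 35 and 36 did not stand above the rest. Separase itself, Espl1, had a difference of −0.23 and kept the split by number.

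In cytokinesis, the midzone kinesin Kif20a was at 13.1, 53.5, 68.2, 9.66 and 5.77 FPKM in metastases, against 16.3, 57.2, 64.2, 16.4 and 14.8 FPKM in primaries. Prc1, which bundles the midzone microtubules, was at 22.1, 268, 276, 49.8 and 16.5 FPKM in metastases, against 45.7, 250.1, 306, 88.2 and 73.2 FPKM in primaries. Anln, or anillin, a scaffold of the contractile ring, was at 14.1, 118, 145, 22.2 and 11.1 FPKM in metastases, against 22.1, 127, 125, 35.1 and 35.8 FPKM in primaries. These genes had wide gaps between the numbers, and Prc1 had the largest standard error of the 44, 0.88, beside a group difference of −0.79. The kinesin Kif23 and the cleavage furrow regulator Ect2 had differences of −0.35 and −0.27. The guanine nucleotide exchange factor Arhgef39 (ENSMUSG00000051517.14, chr4:43496142-43499695, minus strand) was at 8.902, 9.32, 12.96, 16.9 and 6.74 FPKM in metastases, against 11.7, 15.7, 18.1, 21.5 and 28.2 FPKM in primaries. It was lower in the metastasis in all 5 pairs, was highest in primary 72 and did not follow the split by number. Its group difference of −0.75 (SE 0.29, limma adjusted p = 0.9998) did not pass the test.

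The comparison of metastasis with primary differed from pair to pair. In pairs 38 and 72 all 44 genes were lower in the metastasis, against 49.9% of all genes in each of these pairs. In pair 38 the differences ran from −1.003 (Kif4) to −0.15 (Espl1), with a median FPKM ratio of metastasis to primary of 0.667. In pair 72 they ran from −2.74 (Ccnb1) to −0.70 (Plk1), with a median ratio of 0.307. The count of 44 held in both pairs under median ratio, FPKM sum and quantile scaling. Beside these differences, the leukocyte sum was 4940 FPKM in metastasis 38 against 2586 FPKM in primary 38, and 2285 FPKM in metastasis 72 against 832 FPKM in primary 72. In pair 38 other markers lay further apart, with skeletal muscle at 5539 FPKM in the metastasis against 1.86 FPKM in the primary, epithelial genes at 86.03 FPKM against 438 FPKM and mesenchymal genes at 2366 FPKM against 4987 FPKM. In pair 72 the epithelial sum was 491 FPKM in the metastasis against 616 FPKM in the primary, and the mesenchymal sum was 7692 FPKM against 5240.4 FPKM. Hepatocyte (269 against 1429 FPKM), erythroid (164 against 630 FPKM) and skeletal muscle (4.54 against 429 FPKM) sums were lower in metastasis 72 than in primary 72. In pair 38 the hepatocyte sum was 1.03 against 4.48 FPKM and the erythroid sum 129 against 14.7 FPKM. Fibroblast sums were higher in the metastasis, 1465 against 794 FPKM in pair 38 and 1673 against 1217 FPKM in pair 72. Endothelial sums were also higher, 47.2 against 12.1 FPKM and 41.4 against 24.4 FPKM. Acinar and islet sums were 8.33 against 17.98 FPKM in pair 38 and 20.7 against 15.9 FPKM in pair 72. Within the epithelial sum of pair 72, Krt8 (141 against 325 FPKM) and Krt18 (218 against 227 FPKM) were lower in the metastasis. Epcam (15.2 against 2.27 FPKM), Cdh1 (8.71 against 2.76 FPKM) and Krt19 (108 against 58.9 FPKM) were higher there. The mesenchymal sum was lower in the metastasis in pair 38 but not in pair 72. Within that sum in pair 72, Fn1 (4310 against 2110 FPKM) had the widest gap. Vim (3330 against 3079 FPKM) and Zeb1 (20.2 against 13.7 FPKM) were also higher in the metastasis. Zeb2 (19.2 against 22.7 FPKM) and Cdh2 (13.3 against 14.4 FPKM) were lower. The part of these markers in the result was not tested.

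Pairs 35 and 36, with leukocyte sums of at most 4.10 FPKM, held small differences. In pair 35, 31 genes were lower in the metastasis and 13 higher, against 45.2% of all genes lower, and the median ratio was 0.933. Pair 36 had 16 lower and 28 higher, also against 45.2%, and a median ratio of 1.04. Arhgef39 was the lowest gene of both pairs, at −0.69 and −0.45. With these 2 numbers alone, 26 of 44 genes had the lower mean in metastases, against 46.2% of all genes, the median difference was −0.032, and limma called 0 genes (smallest adjusted p among the 44, 0.722). At an unadjusted p under 0.05 in the same fit there was 1 mitosis gene, Mki67, against 6.08% of all genes.

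In pair 25 the genes went apart. There were 20 lower and 24 higher in the metastasis, against 50.2% of all genes lower, and the spread of the 44 differences was an SD of 0.55, beside 0.17 in pairs 35 and 36. Top2a (−1.58), Prc1 (−1.02), Plk1 (−0.81), Spc25 (−0.76) and Cenpe (−0.65) were at the lower end. Cenpa (1.02), Cdc25c (0.86), Cdc25b (0.81), Ccnb2 (0.79), Ndc80 (0.76) and Foxm1 (0.73) were at the upper end. Metastasis 25 had the largest FPKM sum of the 10 libraries, and the sign of many genes in this pair depends on scaling. Scaled to equal FPKM sums, 36 of the 44 were lower in metastasis 25 and the 8 higher were Foxm1, Ccnb1, Ccnb2, Cdc25b, Cdc25c, Mki67, Cenpa and Ndc80, but the median of all genes tested moved to −0.54 in that pair as well, and 20 mitosis genes lay below it, as many as without scaling. Metastasis 25 had 28962 FPKM over erythroid genes and 19727 FPKM over hepatocyte genes, against at most 867 and 1429 FPKM in any primary, and the part of these transcripts in the result was not tested.

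**Figure D3:**
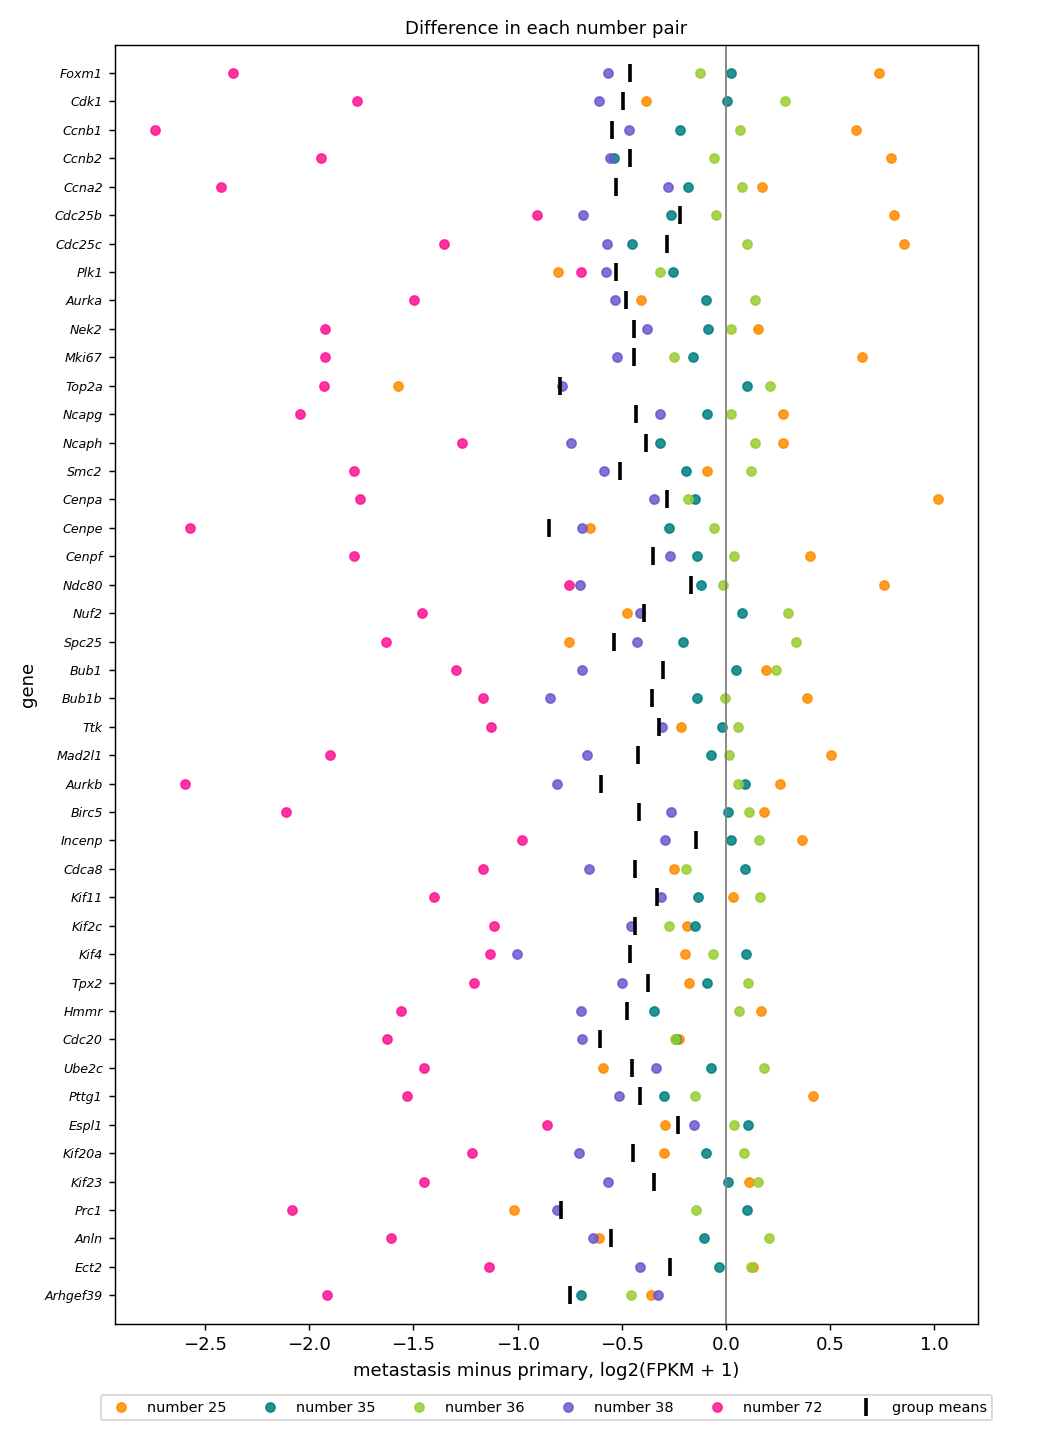
Metastasis minus primary in log2(FPKM + 1) for each of the 44 genes (rows), with a point for each tumour number and a black bar for the difference of group means. All points of numbers 38 and 72 lie left of 0, those of numbers 35 and 36 lie mostly close to 0, and those of number 25 run from −1.58 (Top2a) to 1.02 (Cenpa).

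The plot of pair differences shows 5 genes lower in the metastasis in all 5 pairs, Plk1, Cenpe, Kif2c, Cdc20 and Arhgef39, against 2.09% of all genes tested. Scaled to equal FPKM sums, the count was 12, against 4.79% of all genes under that scaling. Of the others, 18 were lower in 4 pairs, 16 in 3 pairs and 5 (Bub1, Aurkb, Birc5, Incenp and Kif23) in 2 pairs. With tumour number as a block in the limma model, 0 of the 44 were called (adjusted p = 0.9994). At an unadjusted p under 0.05 the block gave 4 genes, Plk1, Cdc20, Prc1 and Arhgef39, against 1.58% of all genes.

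**Figure D4:**
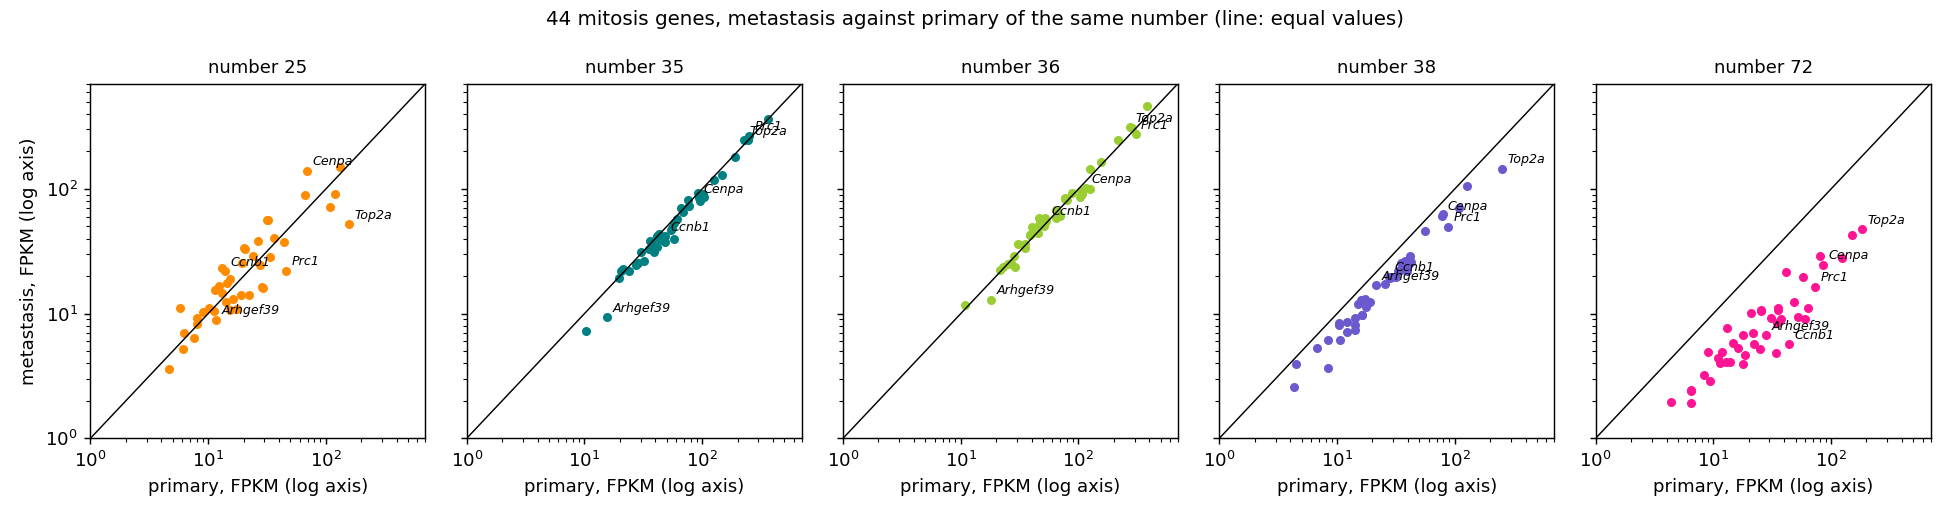
FPKM of each of the 44 genes in the metastasis (vertical axis, log scale) against the primary of the same number (horizontal axis, log scale), 1 panel for each tumour number, with the line of equality. Points follow the line in numbers 35 and 36, lie below it in numbers 38 and 72, where the median ratio is 0.667 and 0.307, and scatter to both sides in number 25.

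In the scatter by number, pair 72 is displaced as a whole while pair 25 is spread around equality. The SD of the 44 differences was 0.55 in pair 25, 0.19 in pair 38 and 0.50 in pair 72. Within numbers 25, 38 and 72 alone, all 44 genes had the lower mean in metastases, against 49.2% of all genes, with a median difference of −0.69. Limma called 0 of them (adjusted p = 0.9994). At an unadjusted p under 0.05 there were 6, Cdk1, Top2a, Cenpe, Spc25, Prc1 and Anln, against 1.1% of all genes.

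Most of the 44 genes varied together over the 10 libraries. The correlation of each gene with the mean of the other 43 had a median of 0.97 and was over 0.9 for 35 genes, against 397 of the 13108 other genes tested, whose median was 0.094. The points share their libraries and fall into the 2 clusters set by number, so these values include that split. Over the 6 libraries of numbers 25, 38 and 72 the median was 0.92, with 25 of 44 genes over 0.9, against a median of 0.0034 and 79 of 13108 other genes. Over 10 libraries the least alike were Arhgef39 (0.30), Pttg1 (0.48), Cdc25b (0.62), Cenpa (0.72), Cenpe (0.76) and Top2a (0.80). Over the 6 libraries Ndc80 was the lowest, at 0.61.

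**Figure D5:**
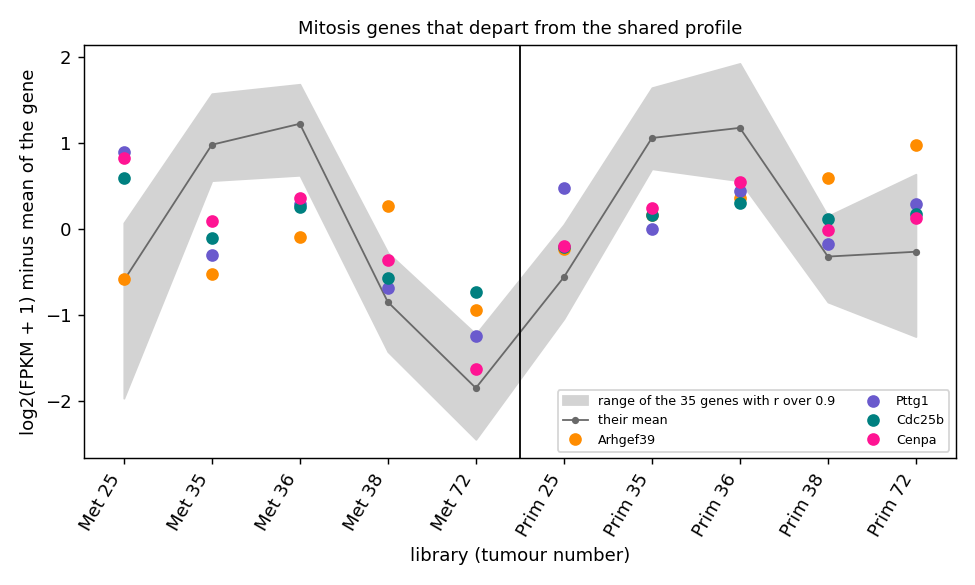
Level of Arhgef39, Pttg1, Cdc25b and Cenpa, the 4 mitosis genes that followed the others least, as log2(FPKM + 1) minus the gene's mean over 10 libraries (vertical axis), in each library (horizontal axis, metastases left of primaries), with the range of the 35 genes with a correlation over 0.9 shaded. Arhgef39 and Pttg1 do not follow the step between numbers, and Cenpa, Cdc25b and Pttg1 are high in metastasis 25.

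Ratios between mitosis genes set metastasis 25 apart for some pairs of genes and not for others. The ratio of Nuf2 to Ndc80, which form a dimer, was 0.463 there and 1.06 to 2.07 in the other 9 libraries. Spc25 to Ndc80 was 0.715 in metastasis 25 and 1.84 to 4.18 elsewhere. Cenpa to Cenpe was 12.9 in metastasis 25 and 2.03 to 5.08 elsewhere. Top2a to Mki67 was 1.58, 2.71, 3.64, 5.56 and 5.62 in metastases and 7.65, 2.26, 2.64, 6.63 and 5.26 in primaries, so that metastasis 25 had the lowest and primary 25 the highest value. Birc5 to Incenp, partners in the passenger complex, was 5.87 in metastasis 25, near the median of 5.95, and its lowest value was 2.75 in metastasis 72. Aurka to Plk1 was 0.877 in metastasis 25, near the median of 0.863, and Ccnb2 to Ccnb1 was 2.57 in metastasis 25 and 2.31 in primary 25, above 0.856 to 1.58 in the other 8. These 7 ratios of FPKM levels were chosen after the values were seen and have no test.

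Other genes of the mitotic machinery followed at a smaller size. Of 112 further genes, in lists of complex subunits and regulators, 95 had the lower mean in metastases and 17 the higher. The share of all genes tested with the lower mean was 48.6%, and it stands beside each count by list in this paragraph. The median difference of the 112 was −0.25, and limma called 0. By list, the lower mean was in metastases for 17 of 17 other spindle genes, 26 of 28 other kinetochore genes and 11 of 12 other entry genes. The same held for 6 of 6 other cytokinesis genes, 4 of 5 condensin genes, 3 of 4 checkpoint genes and 10 of 13 cohesin genes. Of 17 genes of the anaphase-promoting complex and its regulators, Fbxo5 and Ube2s among them, 12 had the lower mean in metastases. Of 10 genes in a list of MuvB, B-Myb and the DREAM members E2f4, Rbl1, Rbl2 and Tfdp1, 6 had the lower mean there. The inhibitory kinase Pkmyt1, which holds Cdk1 inactive, averaged 9.005 ± 4.17 FPKM in metastases and 13.1 ± 3.703 FPKM in primaries (SD, n = 5 each). Pkmyt1 was lower in the metastasis in all 5 pairs, with −1.70 in pair 25 but only −0.0087 in pair 36. Of the 112 genes, 6 were lower in all 5 pairs, against 2.09% of all genes tested. Kif22, a chromokinesin, differed by −0.60 (SE 0.40), Cep55, an abscission protein, by −0.57 (SE 0.68) and Ncapd2, a condensin subunit, by −0.56 (SE 0.43). Mybl2, or B-Myb, the factor that acts with FoxM1, differed by only −0.20 (SE 0.64). Of 6 listed CDK inhibitors, the 4 tested had the lower mean on the log2 scale in metastases, with Cdkn2d at −0.43 (SE 0.18) and Cdkn1a, or p21, at −0.09 (SE 0.56), and none passed the test. Across libraries Cdkn1a ran opposite to the mitosis genes. It was at 87.3, 34.3, 33.8, 139.7 and 198 FPKM in metastases, against 147, 81.8, 31.7, 100.1 and 100.4 FPKM in primaries. Metastasis 72 was the highest library. All 4 libraries of numbers 35 and 36 lay below the other 6, as they did for 2612 of the 13152 genes tested. The other 3 tested inhibitors did not separate the numbers in this way. All 18 S phase genes also had the lower mean in metastases, against 48.6% of all genes tested, with a median of −0.45. Of the 18, 7 were lower in all 5 pairs, against 2.09% of all genes tested.

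Among genes outside the 44, those most like their mean over the 10 libraries were Cdca5 (correlation 0.99), Racgap1 (0.99), Shcbp1 (0.99), 4930579G24Rik (0.99) and Fam64a (0.99), followed by Brca1, Troap, Kif18b, Gm5593 and Nde1, a description over 10 libraries in 2 clusters. Cdca5, or sororin, which protects cohesion, was at 11.9, 29.1, 34.3, 8.74 and 4.05 FPKM in metastases, against 11.2, 28.01, 31.6, 12.1 and 11.5 FPKM in primaries. Racgap1, a partner of Kif23 in the midzone, was at 63.05, 150.0, 173, 35.4 and 16.5 FPKM in metastases, against 48.7, 167, 161, 46.5 and 63.03 FPKM in primaries. Both were lowest in metastasis 72 and highest in the libraries of numbers 35 and 36.

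Exons of 11 of the 44 genes overlap another protein-coding gene in GENCODE, Foxm1 on the same strand and Ccna2, Cdc25b, Cdc25c, Ncapg, Cdca8, Kif4, Cdc20, Ube2c, Kif20a and Prc1 on the other strand, so their levels are less certain than those of the other 33.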

How the data were processed

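PolyA RNA of 5 metastasis and 5 primary libraries was sequenced, per the labels. The authors deposited FPKM values for each gene and library; counts were not used here. Salmon, edgeR and build mm8 appear in the submitters' processing notes without role or version. Which program made the FPKM values was not given in the sources used here. Loci in the table are GRCm38 positions by comparison with GENCODE M21. The 13152 of 48516 genes that reached 1 FPKM in 5 or more libraries were tested with limma 3.58.1 (R 4.3.3) with an intensity trend on log2(FPKM + 1), all 10 libraries, 5 against 5, with Benjamini-Hochberg adjustment over all of them and a threshold of 0.05. Differences are metastasis minus primary on the log2(FPKM + 1) scale, which understates changes of low genes. The test was tried on simulated data first. Lines without a gene identifier (35) were left out.

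Numbers were taken to pair the libraries, since deviations from the group means of libraries with the same number correlated at 0.39, 0.86, 0.89, 0.68 and 0.23 for numbers 25, 35, 36, 38 and 72. Against this, only metastases 36 and 38 correlated best with the primary of their own number, while metastasis 25 matched primary 72 best, metastasis 35 primary 36 and metastasis 72 primary 25. Alternatives were a pseudocount of 0.1, no low-value filter or one of 5 FPKM, 3 scalings, tumour number as a block, no intensity trend, each library left out, and 2 subsets of numbers. Depth was read from the FPKM steps of 742 genes with 1 exon and a length of 3000 bases or more. The 44 genes and all lists were chosen with earlier results of these data known. Values in every library are given for 24 representatives of the roles, the 3 genes with the most negative and least negative differences and the 3 with the lowest correlation, 26 in all; ratios and the genes named by pair were chosen after values were seen. Further genes come from lists by function and are named from the 4 with the widest differences in each list. Promoter sequences are from RefSeq (GRCm38.p6).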

Additional observations from a re-analysis of the deposited data

How the results depend on the processing

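No gene of the table was called by limma under any of the 20 settings tried, and the smallest adjusted p of a named mitosis gene was 0.722. With tumour number as a replicate block, 0 genes were called, the mean difference over the 44 genes was −0.44 and 44 had the lower mean in metastasis, as without the block, and the block changed no other call. With numbers 35 and 36 alone, 26 genes had the lower mean, and the difference changed sign for Cdk1 (0.14), Aurka (0.023), Top2a (0.16), Bub1 (0.14), Aurkb (0.074), Birc5 (0.059), Incenp (0.091), Kif11 (0.013), Ube2c (0.056) and Anln (0.052). The cause was not tested. Leaving out 1 library at a time, between 29 and 44 genes had the lower mean and the mean difference lay between −0.77 (without metastasis 36) and −0.058 (without metastasis 72). It was −0.70 without metastasis 35, −0.27 without primary 35 and −0.23 without primary 36. The sign changed for Mki67 (−0.77 to 0.052), Cenpa (−0.52 to 0.090), Ndc80 (−0.38 to 0.15), Bub1 (−0.66 to 0.063), Birc5 (−0.73 to 0.12), Incenp (−0.42 to 0.14) and Kif11 (−0.75 to 0.13), each without metastasis 72, and for Ndc80 and Incenp also without metastasis 38 or primary 36, and for Incenp without primary 35. Of 520 differences of named genes under alternatives, 498 kept their direction and side of the threshold, 22 changed sign and 0 passed it. Within pairs the mean differences over the 44 genes were 0.016, −0.12, 0.023, −0.54 and −1.59 for numbers 25, 35, 36, 38 and 72, so the group difference rests mainly on numbers 38 and 72.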
